A study of Mus musculus with 3 samples.

Results

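The enzymes described here lengthen fatty acids or put double bonds into them. They are 5 elongases (Elovl1, Elovl2, Elovl3, Elovl5 and Elovl7), 3 fatty acid desaturases (Fads1, Fads2 and Fads3) and the stearoyl-CoA desaturase Scd2, 9 genes of 31870 with a probe. Every non-control spot whose gene name on the array was that of a member was taken, which gave 11 spots, 1 for each of 11 probes, with 2 probes each for Elovl1 and Fads2. RNA came from hepatocytes that were isolated with collagenase from overnight-fasted male C57BL/6 mice aged 22 weeks, and was measured on 3 single-colour (Cy3) arrays, 1 per group. For the HFD-anti-VLA-4 array the mice ate a high-fat diet and were injected with an antibody that blocks VLA-4, an integrin of leukocytes. For the HFD-IgG array they ate the same diet and were injected with control IgG, and for the standard-diet array they ate a standard diet, with no injection listed. Diets began at 6 weeks of age and lasted 16 weeks. The injections, 2 per week, began after 10 weeks of high-fat diet and ran for 6 weeks. How many mice stand behind each array is not given in the labels.

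Elongases carry out the first, rate-setting step of a cycle in the endoplasmic reticulum that adds carbon to a fatty acyl-CoA, and desaturases draw electrons through cytochrome b5 to place double bonds. In the liver, Fads1, Fads2, Elovl5 and Elovl2 turn dietary polyunsaturated fatty acids into arachidonic and docosahexaenoic acid, and stearoyl-CoA desaturases make monounsaturated ones. In mouse liver several of these genes are known targets of SREBP-1c and PPAR-alpha, and polyunsaturated fatty acids lower the expression of many of them.

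Levels are the scanner's processed signal over the 75th percentile of non-control spots on its array, so that 1 is the signal of a probe at that percentile. They compare arrays for 1 probe and not probes with each other. The error after ± is the scanner software's own error of the spot. It is not a spread between mice, which 1 array per group cannot give, so the differences come without a replicate check or a p-value. A difference is called when it is at least 2-fold. Of 43020 non-control spots, 57.3% to 66.5% were well above background on an array, and 0 member spots were saturated or marked as outliers. All 18 hepatocyte markers, albumin among them, were well above background on each array. The HFD-IgG and standard-diet arrays were on 1 slide and the HFD-anti-VLA-4 array on another, and the slide cannot be told apart from the antibody. Diet and IgG injection likewise cannot be told apart in the first comparison.

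Of the elongases of polyunsaturated fatty acids, Elovl5 was called lower in HFD-IgG than in standard diet, which was 1 of the 4 differences of Elovl5 and Elovl2 between a high-fat diet array and standard diet. Elovl5, which elongates the shorter polyunsaturated fatty acids (probe at chr9:77832205-77832264, plus strand, build mm9), had a level of 50.1 ± 5.01 in HFD-anti-VLA-4, 36.5 ± 3.65 in HFD-IgG and 78.2 ± 7.82 in standard diet. It was 2.14-fold lower on the HFD-IgG than on the standard-diet array (log2 difference -1.10, error 0.20, with -0.99 under quantile scaling, just short of 2-fold, and -1.74 under normexp background correction), and the HFD-anti-VLA-4 array lay between them. Elovl2, which elongates longer polyunsaturated chains on the way to docosahexaenoic acid (chr13:41277884-41277943, minus strand), had levels of 33.4 ± 3.34 in HFD-anti-VLA-4, 26.8 ± 2.68 in HFD-IgG and 48.8 ± 4.88 in standard diet. Its order of arrays was that of Elovl5, with a difference of 1.82-fold lower in HFD-IgG than in standard diet (log2 difference -0.87), which was not called. With normexp background correction it was -1.62 and past 2-fold, a setting in which Elovl1 came to -0.81 and the median of all genes to 0.69. On the HFD-anti-VLA-4 array Elovl5 was 1.37-fold and Elovl2 1.25-fold higher than on the HFD-IgG array (log2 differences 0.46 and 0.32, error 0.20 each), neither called. Against standard diet the HFD-anti-VLA-4 array was 1.56-fold lower for Elovl5 and 1.46-fold lower for Elovl2, neither called. With normexp these differences were -1.21 for Elovl5 and -1.06 for Elovl2, both past 2-fold. In RNA of a whole preparation, fewer cells of a type and less RNA per cell cannot be told apart.

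The 250 bases before the start of Elovl5 and Elovl2 are shown because these 2 genes shared their order of arrays, and those of Fads3 because it differed in the opposite direction on the HFD-IgG array. The sequences are RefSeq's on GRCm38.p6, read 5′ to 3′ on the gene's strand. Capitals mark matches on either strand, which do not overlap in these 3 windows. The CCAAT box was searched by its own letters, while the GC box was searched as GGGCGG. For the E-box the letters were CACGTG.
Elovl5, chr9:77917115-77917364, plus strand: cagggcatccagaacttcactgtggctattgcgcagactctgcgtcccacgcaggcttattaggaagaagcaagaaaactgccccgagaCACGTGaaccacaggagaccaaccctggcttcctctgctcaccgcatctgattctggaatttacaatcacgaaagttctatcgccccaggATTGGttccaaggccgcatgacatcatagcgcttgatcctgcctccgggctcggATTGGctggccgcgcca
Elovl2, chr13:41220404-41220653, minus strand: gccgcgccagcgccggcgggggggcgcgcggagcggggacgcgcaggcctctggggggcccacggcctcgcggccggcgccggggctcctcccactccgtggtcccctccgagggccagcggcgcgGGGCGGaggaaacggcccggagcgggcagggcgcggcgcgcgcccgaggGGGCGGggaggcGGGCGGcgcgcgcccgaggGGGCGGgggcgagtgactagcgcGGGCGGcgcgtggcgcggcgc
Fads3, chr19:10041298-10041547, plus strand: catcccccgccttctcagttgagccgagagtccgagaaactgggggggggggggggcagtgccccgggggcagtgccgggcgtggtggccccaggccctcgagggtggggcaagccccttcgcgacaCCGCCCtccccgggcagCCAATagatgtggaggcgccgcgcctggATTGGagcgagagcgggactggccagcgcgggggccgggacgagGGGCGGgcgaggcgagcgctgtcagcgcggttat
The Elovl5 window holds 2 CCAAT boxes and 1 E-box, the Elovl2 window shown 5 GC boxes and none of the other 2 motifs, and the Fads3 window 2 of each of CCAAT box and GC box. Elovl2 has another start, whose window (chr13:41220163-41220412, not shown) holds no CCAAT box, GC box or E-box and is 79.6% G or C. Over all 32851 windows of this length, 33.8% hold the CCAAT box, 32.7% the GC box and 6.02% the E-box. The windows of Elovl5 and Elovl2 share no motif searched, although the genes shared an order of arrays. Base composition also differs, at 55.6% G or C for Elovl5 and 87.2% for the Elovl2 window shown. The sterol regulatory element TCACNCCAC, held by 1.05% of windows, was not matched in any of the 8 windows of the 6 members with an entry. Nor were the cAMP response element TGACGTCA (1.55% of windows), the DR4 element of LXR (0.0152%) or the DR1 element of PPAR (0.0335%), direct repeats searched in a strict form that few windows hold. The set of windows searched held no entry for Elovl3, Fads1 or Scd2.

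Among the elongases of saturated and monounsaturated chains, Elovl3 was called lower than in standard diet on both high-fat diet arrays, and Elovl1 was not called in any comparison. Elovl3, which in mouse liver varies with time of day and is higher in males (chr19:46209762-46209821, plus strand), had a level of 7.55 ± 0.755 in HFD-anti-VLA-4, 10.1 ± 1.01 in HFD-IgG and 22.8 ± 2.28 in standard diet. It was 2.27-fold lower in HFD-IgG than in standard diet (log2 difference -1.18, error 0.20, and -1.88 with normexp) and 3.02-fold lower in HFD-anti-VLA-4 than in standard diet (-1.60). Unlike for Elovl5 and Elovl2, the HFD-anti-VLA-4 array was the lowest of the 3, at 1.33-fold below HFD-IgG (log2 difference -0.41), which is 2.03 times the scanner error and not called.

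Elovl1, which supplies very long chains for sphingolipids, had levels of 21.9 ± 2.19 in HFD-anti-VLA-4, 22.1 ± 2.21 in HFD-IgG and 24.1 ± 2.41 in standard diet at its brighter probe (chr4:118105163-118105222, plus strand). All 3 differences were smaller than the scanner error, at log2 differences of -0.12 for HFD-IgG over standard diet, -0.011 for HFD-anti-VLA-4 over HFD-IgG and -0.13 for HFD-anti-VLA-4 over standard diet. The dimmer probe (chr4:118104741-118104800) gave -0.04, -0.09 and -0.13 for these comparisons in the same sequence. With normexp the brighter probe was -0.81 for HFD-IgG over standard diet and -0.69 for HFD-anti-VLA-4 over standard diet, both beyond the scanner error. A ratio to Elovl1 cancels a single scaling factor per array, though not a scaling that varies with signal (quantile or cyclic loess) or a change of background correction. Relative to Elovl1, the ratio of HFD-IgG to standard diet was 1.97-fold lower for Elovl5, 2.08-fold lower for Elovl3 and 1.67-fold lower for Elovl2. The log2 differences from Elovl1 were -0.98, -1.06 and -0.74, each with an error of 0.29. With normexp they were -0.93, -1.07 and -0.81.

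**Figure D1:**
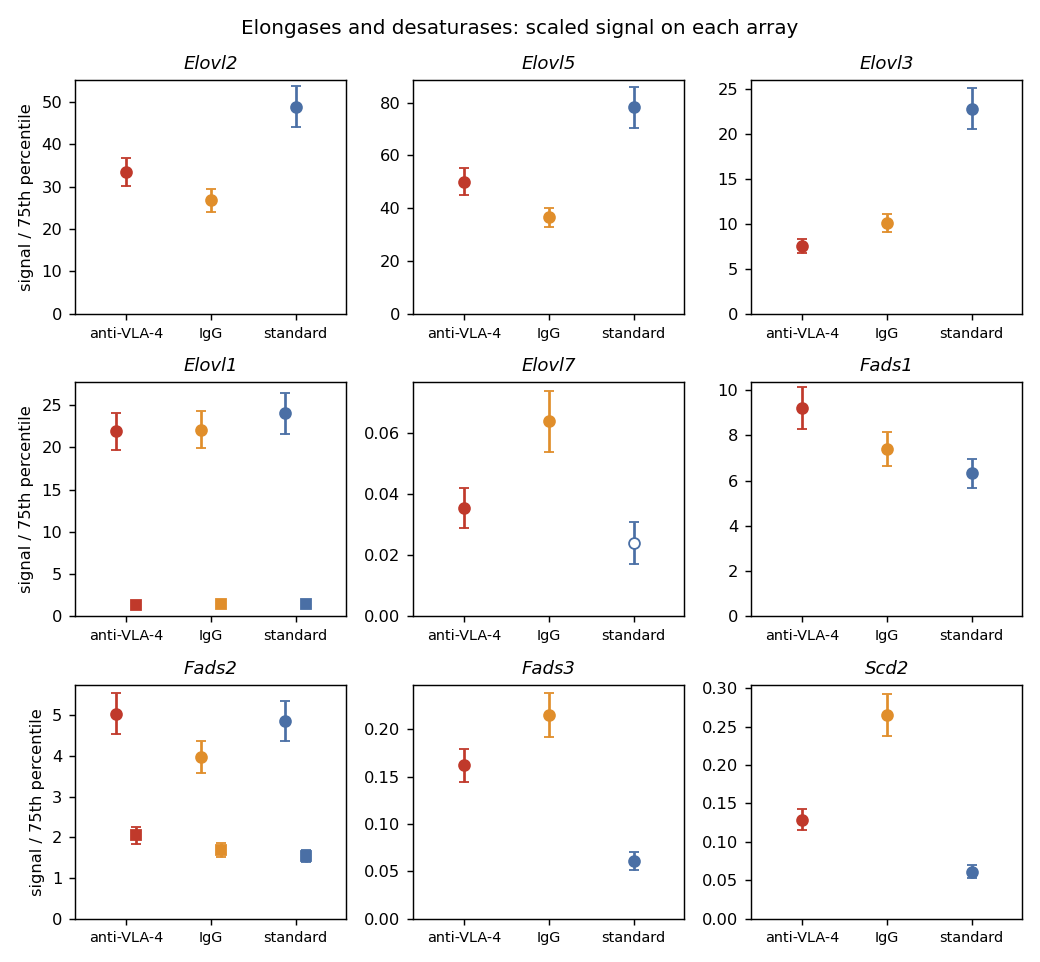
Scaled signal (processed signal over the array's 75th percentile, linear axes from 0) of each member on the HFD-anti-VLA-4, HFD-IgG and standard-diet arrays. Bars are the scanner error of 1 spot, squares are a gene's dimmer probe, and the open circle marks a spot not well above background. Elovl2, Elovl5 and Elovl3 are highest on the standard-diet array, and Elovl7, Fads3 and Scd2 on the HFD-IgG array.

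Elovl7, an elongase of long saturated chains (chr13:109073556-109073615, plus strand), was near the limit of the arrays. Its level was 0.0354 ± 0.00658 on the HFD-anti-VLA-4 array and 0.0638 ± 0.01 on the HFD-IgG array, while the standard-diet spot, at 0.0239 ± 0.00688, did not stand well above background. Set against the lowest signal well above background there, 0.0257, the HFD-IgG array was at least 2.48-fold higher and the HFD-anti-VLA-4 array at least 1.38-fold higher than the standard-diet array. HFD-anti-VLA-4 was 1.80-fold lower than HFD-IgG (log2 difference -0.85, error 0.35), which was not called. With quantile scaling HFD-IgG over standard diet was 0.21 in log2 and with cyclic loess scaling 0.86, neither of which is 2-fold, while normexp gave 1.99. HFD-anti-VLA-4 over standard diet was 1.52 with normexp.

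The front-end desaturases of polyunsaturated fatty acid synthesis stayed within 1.46-fold in all comparisons with the main scaling. With normexp, HFD-IgG over standard diet was -0.30 for Fads1, the opposite sign to the main 0.23, and -0.78 for the brighter Fads2 probe. Fads1, which acts after Fads2 in that pathway (chr19:10270530-10270589, plus strand), had levels of 9.21 ± 0.921 in HFD-anti-VLA-4, 7.41 ± 0.741 in HFD-IgG and 6.32 ± 0.632 in standard diet. HFD-anti-VLA-4 was 1.46-fold above standard diet (log2 difference 0.54, 2.66 times the scanner error) and 1.24-fold above HFD-IgG. Fads2, which takes the first desaturation step, has 2 probes that did not rank the arrays alike. The brighter (chr19:10137760-10137819, minus strand) had 5.04 ± 0.504 in HFD-anti-VLA-4, 3.98 ± 0.398 in HFD-IgG and 4.86 ± 0.486 in standard diet. The dimmer (chr19:10163229-10163288) had 2.05 ± 0.205 in HFD-anti-VLA-4, 1.69 ± 0.169 in HFD-IgG and 1.54 ± 0.154 in standard diet. HFD-IgG over standard diet was -0.29 by the first and 0.14 by the second in log2, so that the direction depends on the probe, while HFD-anti-VLA-4 over HFD-IgG was 0.34 and 0.28. Fads1 and Fads2 were thus on the same side of HFD-IgG as Elovl2 and Elovl5 in HFD-anti-VLA-4, by 1.21- to 1.37-fold over the 5 probes of these 4 genes, none of them called. Over all genes compared there, 80.7% had a lower difference than Fads1, 81.0% than Elovl2, 82.1% than the brighter Fads2 probe and 87.1% than Elovl5. Whether these 4 genes differ together was not tested.

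Fads3 and Scd2 were highest on the HFD-IgG array and lowest on the standard-diet array. Fads3, a relative of Fads1 and Fads2 that desaturates sphingoid bases (chr19:10132641-10132700, plus strand), had a level of 0.162 ± 0.0172 in HFD-anti-VLA-4, 0.215 ± 0.0231 in HFD-IgG and 0.0610 ± 0.00964 in standard diet. It was 3.52-fold higher in HFD-IgG than in standard diet (log2 difference 1.81, error 0.28, and 1.16 with quantile scaling), 2.65-fold higher in HFD-anti-VLA-4 than in standard diet (1.41) and 1.33-fold lower in HFD-anti-VLA-4 than in HFD-IgG (-0.41, error 0.22). Scd2, the stearoyl-CoA desaturase that in adult mice is most prominent in brain (chr19:44381024-44381083, plus strand), had 0.129 ± 0.0139 in HFD-anti-VLA-4, 0.265 ± 0.0274 in HFD-IgG and 0.0611 ± 0.00847 in standard diet. It was 4.34-fold higher in HFD-IgG than in standard diet (log2 difference 2.12, error 0.25, and 1.53 with quantile scaling), 2.11-fold higher in HFD-anti-VLA-4 than in standard diet (1.08, error 0.25) and 2.06-fold lower in HFD-anti-VLA-4 than in HFD-IgG (-1.04, error 0.21). The last of these lies close to the 2-fold threshold and was not called with quantile scaling (-0.76), cyclic loess scaling (-0.93) or normexp background correction (-0.54). HFD-anti-VLA-4 over standard diet likewise was not called with quantile (0.77) or cyclic loess scaling (0.92).

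Neighbouring genes on chromosome 19 differed less. Fads3, Fads2 and Fads1 are adjacent in RefSeq's gene order, yet relative to Fads1 the ratio of HFD-IgG to standard diet was higher for Fads3 by a log2 difference of 1.59 (error 0.34), and relative to Fads2 it was 4.30-fold higher by the brighter Fads2 probe and 3.20-fold higher by the dimmer. Scd2 lies between Scd3 and Scd4, with Scd1 beyond Scd4. Scd1, the main stearoyl-CoA desaturase of adult mouse liver, had levels of 106.2 in HFD-anti-VLA-4, 105.8 in HFD-IgG and 125.2 in standard diet. Relative to Scd1, the ratio of HFD-IgG to standard diet was 5.14-fold higher for Scd2 (log2 difference 2.36, error 0.32). Fads3 and Scd2 lay below the 75th percentile of these arrays, and Fads1, Fads2 and Scd1 above it. Of all genes above it on neither array, 30.9% were called higher in HFD-IgG than in standard diet, and of the others 4.27%. The part of brightness in these ratios was not tested. The brightest Scd3 probe had 0.957 in HFD-anti-VLA-4, 1.13 in HFD-IgG and 1.16 in standard diet, and Scd4 was well above background on the HFD-anti-VLA-4 array alone. Scd genes resemble each other, and how far the Scd2 probe also binds Scd1 RNA was not tested.

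**Figure D2:**
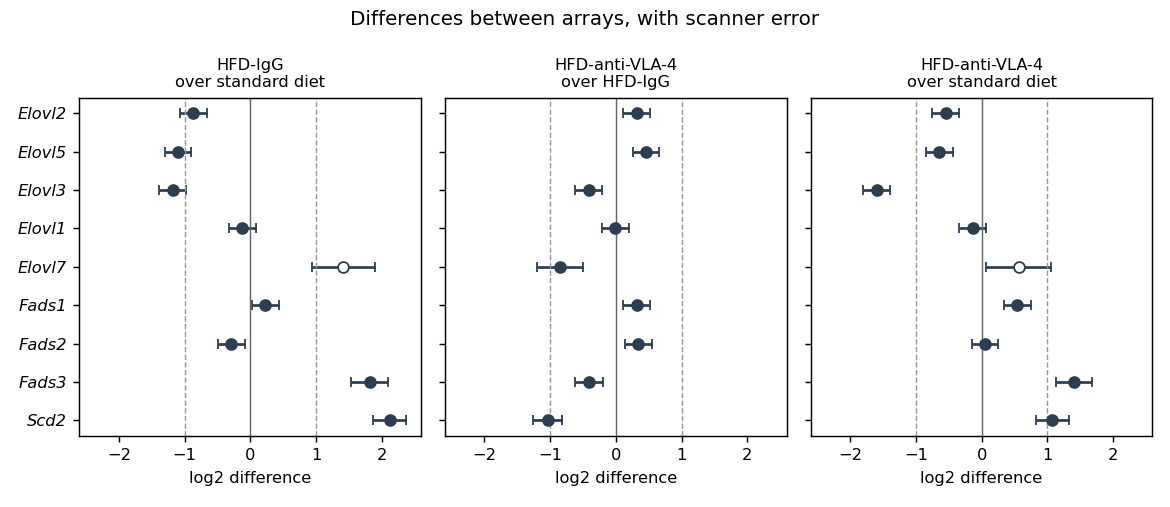
Log2 differences of the 9 genes (brighter probe where there are 2) for HFD-IgG over standard diet, HFD-anti-VLA-4 over HFD-IgG and HFD-anti-VLA-4 over standard diet. Bars are the scanner error, dashed lines mark 2-fold, and open circles have a standard-diet spot not well above background. Elovl3 lies left of -1 against standard diet on both high-fat diet arrays, and Fads3 and Scd2 right of 1.

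In HFD-IgG over standard diet, 3 of the 9 members were at least 2-fold higher (Scd2, Fads3 and Elovl7) and 2 were lower (Elovl3 and Elovl5), with a median log2 difference of -0.12. Over the 22001 genes compared, 20.4% were at least 2-fold higher and 2.41% lower, with a median of 0.04. With quantile scaling these shares were 11% and 12.3%, so higher calls made up 47.3% of all calls in place of 89.4%. In HFD-anti-VLA-4 over HFD-IgG, 0 members were higher and 1 was lower (Scd2), with a median of -0.011, where 1.9% of 22589 genes were higher and 16.5% lower with a median of -0.07. With quantile scaling 10.9% were higher and 9.1% lower, and higher calls made up 54.6% of calls in place of 10.3%. In HFD-anti-VLA-4 over standard diet, 2 members were higher (Fads3 and Scd2) and 1 lower (Elovl3), with a median of 0.05, where 7.99% of 20334 genes were higher and 3.39% lower with a median of 0.007. With quantile scaling higher calls were 57.2% of calls there, against 70.2%. These comparisons share arrays, so a spot read high on the HFD-IgG array alone would stand higher in the first and lower in the second.

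The higher and the lower members differ in brightness, and so does the background. Among the 8647 genes that exceeded the 75th percentile on 1 or both of the arrays, 4.27% were at least 2-fold higher and 1.93% lower in HFD-IgG than in standard diet. This class holds Elovl1, Elovl2, Elovl3, Elovl5, Fads1 and Fads2. Over all genes compared, 2.44% had a lower difference than Elovl3, 2.76% than Elovl5 and 4.39% than Elovl2. Among the 13354 genes that exceeded it on neither, which hold Elovl7, Fads3 and Scd2, 30.9% were higher and 2.73% lower, so the share of dim genes called higher was itself large. Scd2 lay above 84.2%, Fads3 above 82.4% and Elovl7 above 79.9% of all genes compared.

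The share called also moved with the probe's base composition, which is shown for the 3 dim members by the first 30 of each probe's 60 bases, with purines (A and G) in capitals.
Fads3 probe: tAAAAtGAcAcGGtGAGcAtAGcAtGtttt
Scd2 probe: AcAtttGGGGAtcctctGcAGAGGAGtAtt
Elovl7 probe: AtGAtttGtctcAAcGGttAAtGAAcGctt
Over its whole length the Fads3 probe has 37 purines (61.7%), the Scd2 probe 28 (46.7%) and the Elovl7 probe 27 (45.0%). Of dim genes with over 50% purines in the probe, the class of Fads3, 44.7% were called higher in HFD-IgG than in standard diet, and of those with at most 50%, the class of Scd2 and Elovl7, 16.1% were. Lower calls in HFD-anti-VLA-4 over HFD-IgG took 41.1% of the first and 9.84% of the second class. In HFD-anti-VLA-4 over standard diet the shares called higher were 11.7% and 11.1%. Whether probe composition has a part in the Fads3 difference was not tested.

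**Figure D3:**
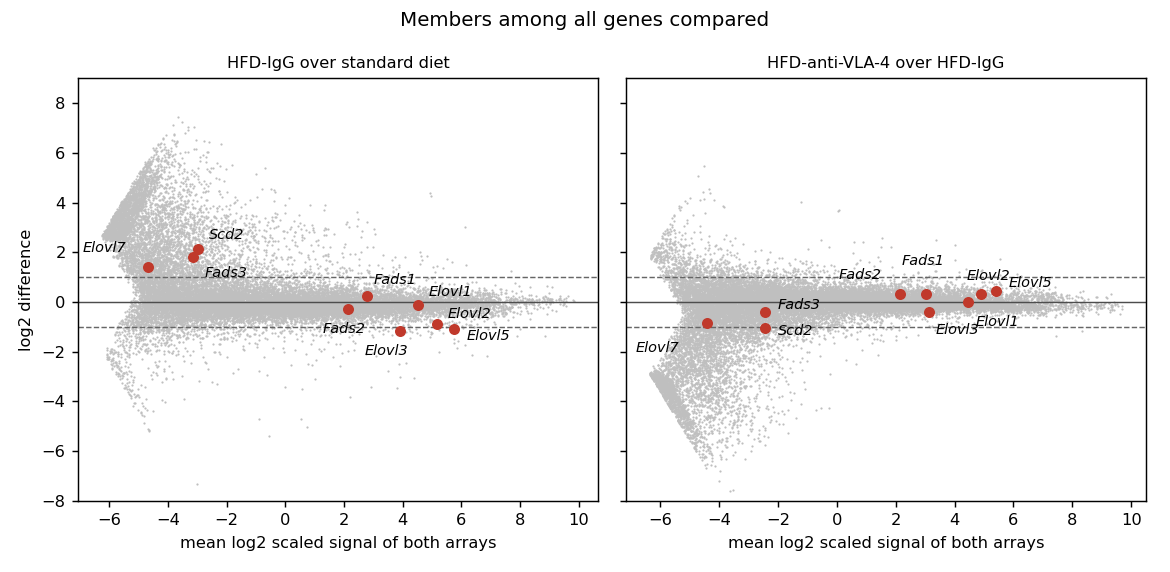
Log2 difference (vertical axis) against the mean log2 scaled signal of both arrays (horizontal axis) for every gene compared (grey) and the members (red), in HFD-IgG over standard diet and in HFD-anti-VLA-4 over HFD-IgG. Dashed lines mark 2-fold. Scd2, Fads3 and Elovl7 lie among dim genes, which spread upward in the first panel and downward in the second, while the other 6 members lie among bright genes near 0, with Elovl2, Elovl3 and Elovl5 below most of them in the first.

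Most markers of Kupffer, sinusoidal endothelial and stellate cells differed in the same directions as Scd2, Fads3 and Elovl7, and cholangiocyte markers did so in part. Of 20 Kupffer cell and macrophage markers compared, 18 were at least 2-fold higher in HFD-IgG than in standard diet. Their median log2 difference was 2.86, or 2.56 with lower bounds where 1 of the arrays was not well above background. Also higher were 20 of 22 sinusoidal endothelial markers (median 2.81), 15 of 19 stellate cell and fibroblast markers (3.24, or 2.75 with lower bounds) and 7 of 12 cholangiocyte markers (1.28). None of these lists had a marker at least 2-fold lower there. Over all genes compared 20.4% were higher and 2.41% lower, and over dim genes 30.9% and 2.73%. The summed level of the Kupffer cell list was 65.4 in HFD-anti-VLA-4, 83.5 in HFD-IgG and 18.1 in standard diet. For the endothelial list it was 50.6 in HFD-anti-VLA-4, 91.1 in HFD-IgG and 20.4 in standard diet. The stellate list summed to 21.5 in HFD-anti-VLA-4, 39.7 in HFD-IgG and 5.55 in standard diet, and the cholangiocyte list to 14.5 in HFD-anti-VLA-4, 16.4 in HFD-IgG and 8.19 in standard diet. Each of these sums orders the arrays as Scd2 and Fads3 do. In HFD-anti-VLA-4 over standard diet the medians, taken with lower bounds, were 2.255 for the Kupffer cell, 1.70 for the endothelial and 1.61 for the stellate list. For the cholangiocyte list the median there was -0.40, with 6 of 9 markers below 0, unlike Scd2 and Fads3. Of the 22 Kupffer cell markers with a probe, the number not well above background was 1 in HFD-anti-VLA-4, 2 in HFD-IgG and 7 in standard diet. Of the 22 endothelial markers these were 0 in HFD-anti-VLA-4, 0 in HFD-IgG and 4 in standard diet, of the 20 stellate markers 2 in HFD-anti-VLA-4, 1 in HFD-IgG and 11 in standard diet, and of the 14 cholangiocyte markers 7 in HFD-anti-VLA-4, 2 in HFD-IgG and 6 in standard diet. In HFD-anti-VLA-4 over HFD-IgG, 1 of 21 Kupffer cell, 10 of 22 endothelial, 8 of 20 stellate and 5 of 12 cholangiocyte markers were at least 2-fold lower. Of all genes compared 16.5% were lower there, and of dim genes 25.7%, so the Kupffer cell count was below both shares. Of these 21 Kupffer cell markers 16 lay below 0 and 5 above (median -0.36). The summed level of the 18 hepatocyte markers was 7554 in HFD-anti-VLA-4, 7925 in HFD-IgG and 7806 in standard diet, a sum set by the brightest secretory genes. Of these 18, 1 was called lower in HFD-IgG than in standard diet and 0 higher. That gene was Cps1 of the urea cycle, with levels of 25.4 in HFD-IgG and 56.0 in standard diet (2.20-fold lower). These marker genes are named after their values were seen. Tat, a tyrosine-degrading enzyme (log2 difference -0.99), Apoa1 (-0.73), Hnf4a (-0.68) and Apob (-0.54) were lower and Hpx (0.65) higher without being called. The lower ones named run the same way as Elovl5, Elovl3 and Elovl2, and any link between them was not tested. Of all 18 hepatocyte markers, 10 lay above 0 and 8 below in HFD-IgG over standard diet. None of the 18 was called in HFD-anti-VLA-4 over HFD-IgG, and the medians were 0.15 for HFD-anti-VLA-4 over HFD-IgG and 0.02 for HFD-IgG over standard diet. Of the lists of blood and fat cells, 3 of 11 T and NK cell markers were higher and 1 lower in HFD-IgG than in standard diet, as were 3 and 0 of 5 B and plasma cell markers, 5 and 0 of 11 neutrophil and monocyte markers, 0 and 1 of 5 erythroid markers, and 4 and 2 of 8 adipocyte markers. The adipocyte median was 2.11 there, or 1.79 with lower bounds. In HFD-anti-VLA-4 over HFD-IgG 4 of 7 adipocyte markers were lower and 0 higher, with all 7 below 0 (median -1.36). In these comparisons the adipocyte medians have the directions of Scd2. In HFD-anti-VLA-4 over standard diet the adipocyte median was -0.39, with 4 of 7 markers below 0, unlike Scd2. For HFD-anti-VLA-4 over HFD-IgG, 1 of 13 T and NK cell markers was higher and 2 lower, 0 and 2 of 7 B and plasma cell markers, 2 and 3 of 13 neutrophil and monocyte markers, and 0 and 0 of 5 erythroid markers. The summed adipocyte level was 15.3 in HFD-anti-VLA-4, 24.7 in HFD-IgG and 33.4 in standard diet. The part of other cells in the Scd2, Fads3 and Elovl7 differences was not tested.

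Of the other elongases and desaturases, Elovl6, which elongates palmitate, was the only gene called in HFD-IgG over standard diet. Its level was 3.21 in HFD-anti-VLA-4, 2.36 in HFD-IgG and 5.52 in standard diet, which is the order of arrays of Elovl5 and Elovl2, and it was 2.34-fold lower in HFD-IgG than in standard diet. In that comparison 1 of 5 genes of this list was lower and 0 higher (median -0.24), where 2.41% of all genes were lower. In HFD-anti-VLA-4 over HFD-IgG 0 of 6 were called (median 0.30, or 0.185 with lower bounds), where 1.9% of all genes were higher and 16.5% lower. Elovl4, which makes very long chains in retina and skin, was not well above background on any array.

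Of 12 enzymes that complete the elongation cycle or supply electrons and were compared in HFD-IgG over standard diet, 2 were higher and 0 lower (median -0.06), near the 20.4% of all genes called higher. These were Hacd4, a dehydratase of the cycle, at least 3.65-fold, and Cyb5r2, a cytochrome b5 reductase, at least 3.75-fold, neither standing well above background in standard diet. Hacd3, a dehydratase of the cycle, had levels of 120.6 in HFD-anti-VLA-4, 94.5 in HFD-IgG and 138.0 in standard diet, and Tecr, the last reductase, 13.6 in HFD-anti-VLA-4, 9.84 in HFD-IgG and 12.8 in standard diet. Neither was called in any comparison. Cyb5r2 was also the 1 of 12 that was lower in HFD-anti-VLA-4 than in HFD-IgG, where 0 were higher (median 0.01). Of all genes compared, 1.9% were higher and 16.5% lower there. Of 12 genes of fatty acid supply, 0 were higher and 1 lower in HFD-IgG than in standard diet (median -0.40), which was Acacb, the acetyl-CoA carboxylase of mitochondria, with levels of 2.04 in HFD-IgG and 6.67 in standard diet. Of all genes compared in HFD-IgG over standard diet, 2.41% were lower. None of the 12 genes of fatty acid supply was called in HFD-anti-VLA-4 over HFD-IgG (median 0.09).

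Among 18 transcriptional regulators, Srebf1, which encodes SREBP-1, was 3.31-fold higher in HFD-IgG than in standard diet, with levels of 0.904 in HFD-IgG and 0.273 in standard diet, while Elovl5 and Elovl6 were lower. Srebf1 is in the dim class, of which 30.9% were called higher in that comparison. Elovl5 and Elovl6 are in the brighter class, of which 4.27% were called higher and 1.93% lower. Insig2, which holds SREBP in the endoplasmic reticulum, was 2.36-fold lower, with levels of 27.3 in HFD-IgG and 64.4 in standard diet at its brighter probe, and the list median was -0.21. Ppara had levels of 48.9 in HFD-anti-VLA-4, 44.8 in HFD-IgG and 38.5 in standard diet and was not called. In HFD-anti-VLA-4 over HFD-IgG 1 of the 18 was higher, Mlxipl, encoding the glucose-responsive factor ChREBP, by 2.10-fold, and 0 were lower (median 0.15). Of 14 SREBP-1c and LXR targets, a list that also holds Srebf1 and Elovl6, 4 were higher and 1 lower in HFD-IgG than in standard diet (median -0.27), and 0 were higher and 1 lower in HFD-anti-VLA-4 than in HFD-IgG (median 0.20). Of all genes, 20.4% were higher and 2.41% lower in the first of these comparisons, and 1.9% and 16.5% in the second.

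For Elovl3, genes with male bias and circadian genes were set beside it. Over all genes compared, 20.4% were called higher and 2.41% lower in HFD-IgG over standard diet. In HFD-anti-VLA-4 over HFD-IgG these shares were 1.9% and 16.5%. Of 16 male-biased genes compared, 8 were lower and 2 higher in HFD-IgG than in standard diet (median -0.96), and in HFD-anti-VLA-4 over HFD-IgG 2 were higher and 0 lower (median 0.15). The organic anion transporter gene Slco1a1 had levels of 2.68 in HFD-anti-VLA-4, 0.919 in HFD-IgG and 4.66 in standard diet, and the steroid dehydrogenase gene Hsd3b5 had 0.937 in HFD-anti-VLA-4, 0.337 in HFD-IgG and 0.853 in standard diet. Both were higher in HFD-anti-VLA-4 than in HFD-IgG, where Elovl3 was lower. The bile acid enzyme gene Cyp7b1 had 15.3 in HFD-anti-VLA-4, 12.6 in HFD-IgG and 28.5 in standard diet. Cyp4a12b, with the lowest log2 difference of the list in HFD-IgG over standard diet (-3.45), had 4.95 in HFD-anti-VLA-4, 4.28 in HFD-IgG and 46.9 in standard diet. Other male-biased genes had the order of Elovl3. Gstp1 had 54.2 in HFD-anti-VLA-4, 84.0 in HFD-IgG and 141.4 in standard diet, and C6 had 2.57 in HFD-anti-VLA-4, 2.87 in HFD-IgG and 8.56 in standard diet. Of 13 female-biased genes compared 6 were higher and 2 lower in HFD-IgG than in standard diet (median 0.83), and of 14 in HFD-anti-VLA-4 over HFD-IgG 1 was higher and 2 lower (median 0.09). Of 17 circadian genes 4 were higher and 0 lower in HFD-IgG than in standard diet (median 0.23), and in HFD-anti-VLA-4 over HFD-IgG 1 of 18 was higher and 2 lower (median 0.43, or 0.36 with lower bounds). Dbp, a clock-driven transcription factor, had 23.8 in HFD-anti-VLA-4, 16.9 in HFD-IgG and 3.69 in standard diet, the reverse of the order of Elovl3. Arntl, also of the circadian list, had 0.485 in HFD-anti-VLA-4, 0.642 in HFD-IgG and 0.997 in standard diet, the order of Elovl3. Among users of the acyl chains, 2 of 8 genes of ceramide synthesis were higher in HFD-IgG than in standard diet and 0 lower (median 0.46), near the 20.4% of all genes. These included Cers4, a ceramide synthase, at 7.46-fold, a dim gene with levels of 0.301 in HFD-IgG and 0.0404 in standard diet. Of dim genes 30.9% were called higher there. None of the 8 genes of ceramide synthesis was higher and 1 was lower in HFD-anti-VLA-4 than in HFD-IgG (median 0.11). Of 16 genes of peroxisomal retroconversion and phospholipid incorporation 2 were higher and 0 lower in HFD-IgG than in standard diet (median -0.21). These included Abcd2, a peroxisomal transporter of very long chains, at 3.95-fold, also dim at 0.282 in HFD-IgG and 0.0714 in standard diet. For HFD-anti-VLA-4 over HFD-IgG the counts of this list were 1 higher and 1 lower of 17 (median -0.04).

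**Figure D4:**
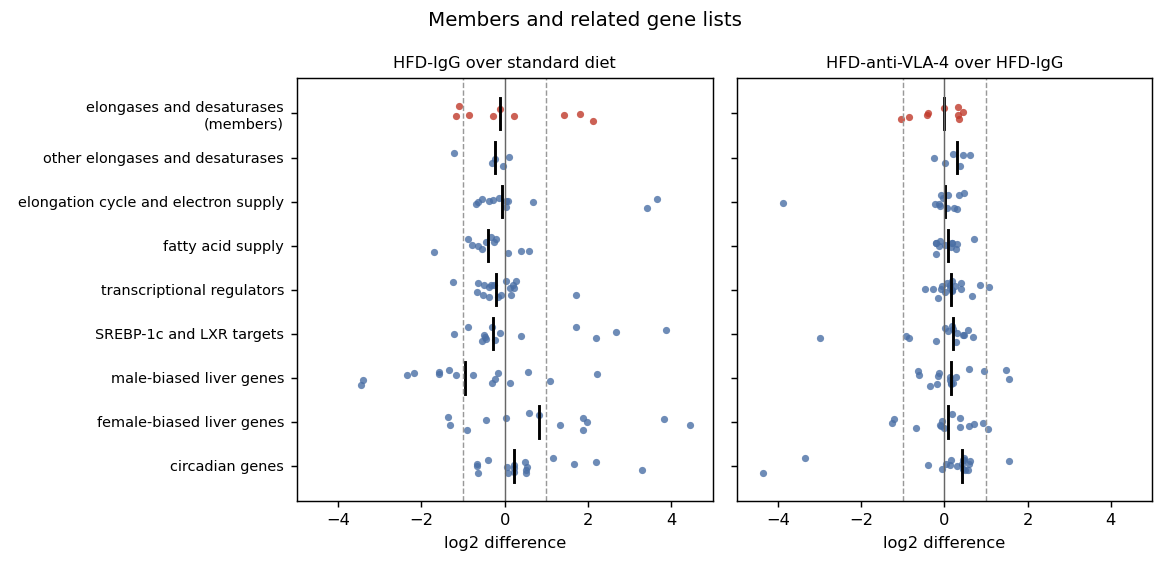
Log2 differences of the members (red) and of the genes of related lists (blue) in HFD-IgG over standard diet and in HFD-anti-VLA-4 over HFD-IgG. Each point is a gene compared, black bars are medians and dashed lines mark 2-fold. The members spread from -1.18 to 2.12 in the first panel, on both sides of a median of -0.12.

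The genes whose 3 levels were most like those of a member were sought among 11938 genes with a RefSeq symbol that were well above background on all 3 arrays, leaving out clones, predicted loci and olfactory receptors, by the Euclidean distance between log2 levels centred on each gene's mean. For Elovl3 these were Fgfr1 (distance 0.015) and Cd9 (0.020), and 36 genes lay within 0.25. For Elovl5 they were Ccnf (0.037) and Maged1 (0.040), with 157 within 0.25. For Fads3 they were Jdp2 (0.013) and Arvcf (0.051), with 80, and for Scd2 Septin8 (0.016) and Krtap16-3 (0.023), with 53. With only 3 arrays many genes share an order and size of differences, and the likeness is a description of these arrays.

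**Figure D5:**
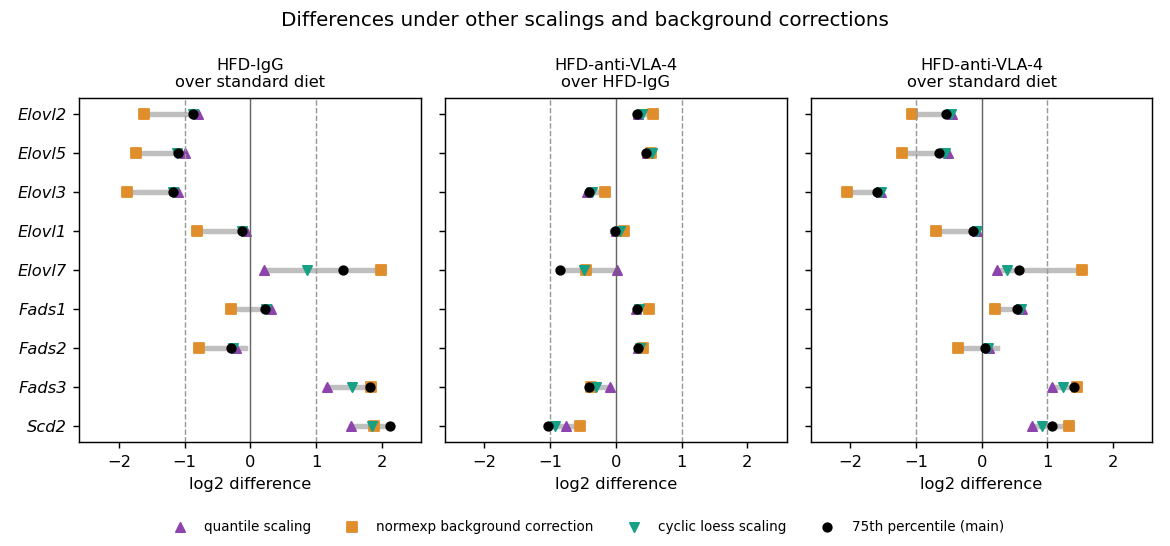
Log2 differences of the members with the main scaling (black), quantile scaling, cyclic loess scaling and normexp background correction, for the 3 comparisons; grey bars span all settings tried and dashed lines mark 2-fold. Elovl7 moves most, between 0.21 and 1.99 in HFD-IgG over standard diet, and Elovl2, Elovl3 and Elovl5 stay below 0 in both comparisons with standard diet.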

How the data were processed

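The authors deposited spot intensities from Agilent's Feature Extraction (version 11.0.1.1 in the submitters' processing notes), background-subtracted and detrended per the file headers. In the authors' deposited value table, 23206 spots have a linear ratio, found by comparison with the scanner files to be the processed signal over the array's 75th percentile, within a relative 2e-08. Its column medians are 0.81 for HFD-anti-VLA-4, 0.80 for HFD-IgG and 0.79 for standard diet. Well-above-background and outlier marks are other values, per the file headers set by the scanner software. Positions of probes come from the files and are on mm9.

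Log2 signal was scaled by each array's 75th percentile, which was 513.7 for HFD-anti-VLA-4, 500.3 for HFD-IgG and 573.7 for standard diet, and spots of a probe were averaged. Probes were named through RefSeq accessions (26032 of 39395) or the array's gene name, and a gene took its brightest probe. Genes entered a comparison if 1 of its arrays or both had them well above background. Where only 1 of the arrays was, the fold is a lower bound. Calls use that bound, while list medians are of measured differences unless stated to be with lower bounds. No test was possible with 1 array a group, and the number of arrays limits the precision. Members and lists were chosen with earlier results of these data known, as were the classes of brightness and purine content. Genes to name were all members, list genes at least 2-fold different and up to 3 others per list, and the 2 genes most like a member spanning at least 1 in log2; part of them are given, and the dimmer Elovl1 and Fads2 probes are shown too. The ratios to Elovl1 with normexp and to the dimmer Fads2 probe were chosen after seeing the data. The steps were tested on simulated arrays. The software was limma 3.58.1 in R 4.3.3, and numpy 2.4.6, pandas 2.3.3 and matplotlib 3.10.9 in Python 3.11.15.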

Additional observations from a re-analysis of the deposited data

How the results depend on the processing

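No paired analysis was possible because each group has 1 array; for the same reason no array could be left out and a slide block could not be fitted. The alternatives were quantile, cyclic loess and bright-probe median scaling, normexp background correction (offset 50), averaging a gene's probes, 2 other filters on dim genes, a 1.5-fold threshold and the deposited value table. Of 210 differences of single members under 8 of them, 205 kept their sign. The 5 that did not belong to Elovl1, Elovl7, Fads1 and Fads2, in comparisons where they were not called, and 31 of the 210 moved by more than the scanner error, 19 of these with normexp and 8 with quantile scaling. In HFD-IgG over standard diet, quantile scaling left 1 member at least 2-fold lower, since Elovl5 came to -0.99, and normexp moved the members' median to -0.78, while the median of all genes moved to 0.69 (main 0.04). In HFD-anti-VLA-4 over HFD-IgG, quantile scaling, cyclic loess scaling and normexp each left 0 members lower, with Scd2 at -0.76, -0.93 and -0.54, and the 1.5-fold threshold gave 2. In HFD-anti-VLA-4 over standard diet, quantile and cyclic loess scaling each left 1 member higher, normexp gave 3 lower (Elovl3, Elovl5 and Elovl2) and a median of -0.36 while that of all genes was 0.39, and the 1.5-fold threshold gave 2 lower. The cause of these shifts was not tested. Scd2 and Fads3 stayed at least 2-fold higher in HFD-IgG than in standard diet under all settings tried (1.53 to 2.12 and 1.16 to 1.83 in log2), as did Elovl3 lower (-1.88 to -1.09). Elovl7 was 0.21 with quantile scaling and not called.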
